A study of Mus musculus with 13 samples.

Results

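The genes described here are 10 genes of JAK-STAT and cytokine receptor signalling: the receptor subunits Csf2rb and Il6st, the kinases Jak1 and Jak2, the transcription factors Stat3, Stat5a and Stat5b, and the inhibitors Socs2, Socs3 and Cish. They were listed by name, and all 10 were found among the 13201 genes of the deposited table and among the 12846 genes tested. The table holds 13 RNA libraries of mouse haematopoietic stem cells (HSCs), self-renewing cells of the bone marrow from which every blood lineage arises. Each library was made from 100 sorted cells with Smart-seq2, a full-length cDNA method for small numbers of cells.

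Donor mice were wild type (WT) or deficient in MEK1 (KO), the ERK-activating kinase that Map2k1 encodes. They were untreated or had been given 5-fluorouracil (5-FU), a drug that kills dividing blood cells. Untreated WT comprised libraries D1, D2, D3 and untreated KO libraries D4, D5, D6. 5-FU WT comprised libraries A2, A3, A4, D4 and 5-FU KO libraries A5, A6, A8. Values per library are always listed in this order. The sources used here do not give the Cre driver or other means of deletion, the surface gate of the sort, the age of the mice, or the dose and time of 5-FU. Whether each library had its own donor animal is not stated either, and the spread that p-values rest on may thus be partly technical.

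Many cytokines of blood formation bind receptors that have no kinase of their own and rely on JAK kinases bound to the receptor tails. The activated JAKs phosphorylate STAT factors, which move to the nucleus and switch on target genes. Among these targets are the SOCS proteins and CISH, which bind the receptor or the JAK and dampen the signal. In HSCs and their progeny, the STAT5 pair is a main effector of interleukin and other growth factor signals.

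STAT dimers bind the palindrome TTCNNNGAA, and windows of RefSeq (GRCm38.p6), from 250 bases before to 50 bases after a start site, were searched for it. The motif reads the same on both strands, so each match counts for both, and matches were allowed to overlap. It was present in 2726 of 32851 windows (8.30%), and 150 windows (0.457%) held it at least 2 times. Of the 8 members with a window, Socs3 held 1 match and Cish 2, both genes of the feedback arm, whereas the windows of Jak1, Jak2, Stat3, Stat5a, Stat5b and Il6st held none. Stat5a and Stat5b had 2 windows each. Socs2, also of the feedback arm, and Csf2rb had no window and were not searched. Csf2rb2, the paralogue next to Csf2rb, held 1 match. The 30 bases around these matches are shown 5′ to 3′ on the strand of the gene, with the matched letters in capitals, because they are the stretches of the searched windows that carry the motif.
Socs3: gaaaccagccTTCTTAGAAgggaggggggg
Cish: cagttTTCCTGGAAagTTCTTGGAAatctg
Csf2rb2: gtgtccacaaTTCTGAGAAgcaagcaaagc
The stretches lie at chr11:117969501-117969530 on the minus strand (Socs3), chr9:107296654-107296683 on the plus strand (Cish) and chr15:78305717-78305746 on the minus strand (Csf2rb2). The match began at position -154 from the RefSeq start in Socs3 and at -15 in Csf2rb2, and the pair in Cish began at 1 and 12. The RefSeq start lay 681 bases from the GENCODE M21 start in Socs3, 633 in Cish and 0 in Csf2rb2. By the GENCODE coordinates, the stretches of Socs3 and Cish thus lie inside the genes and not upstream of them. A match is a description of these letters only, and no binding was measured.

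Gene coordinates are those of GENCODE M21 (GRCm38). Levels are normalized counts recovered from the deposited log2 values, with group values as mean ± SD. Log2 differences refer to the deposited values themselves, a variance-stabilized scale on which the change of genes with low counts is understated. Read totals lay between 11416753 and 25380570 in 12 libraries and reached 45384866 in untreated WT D1. A gene without reads could by counting error alone have had up to 3, which equals a normalized count between 0.979 and 4.35 depending on the library. Map2k1 averaged 1262 ± 449 in untreated WT (n = 3) and 635 ± 105 in untreated KO (n = 3), and 1099 ± 584 (n = 4) and 364 ± 83.8 (n = 3) after 5-FU, so its mean was lower in KO, where it remained detectable. Of 14 HSC markers all 14 were in the table, and their summed normalized count lay between 14085 and 36182 in the 13 libraries. Procr, one of them, ranged from 784 to 974 in untreated WT but from 1.16 to 165 in 5-FU WT. Others went the opposite way, for example Slamf1, at 2104 ± 869 in untreated WT and 4202 ± 649 in 5-FU WT. In WT cells 3 of the 14 were higher and 6 lower after 5-FU at a limma adjusted p under 0.05. Within the 5-FU WT group, A3 and D4 were closely alike: their Pearson correlation across genes was 0.988. The 3 pairs within 5-FU KO came next, with 0.966 to 0.977, and the other pairs within groups had values from 0.912 to 0.943. The design text counts 4 samples in 5-FU WT and mentions 1 technical replicate among untreated WT, without saying which library that is. Untreated WT D1 was the only library sequenced on both flowcells. Whether A3 and D4 come from one sample is not stated. If they do, the group holds 3 samples and not the 4 that its n gives, and results with both averaged as 1 sample stand beside the members' calls. All untreated cells were labelled as acquired in 2015 and all 5-FU cells in 2016, except 5-FU WT D4, which was labelled 2015. That library was also sequenced on a flowcell that only untreated WT D1 shared. Among the 5-FU libraries, date and flowcell thus changed together and cannot be told apart. Because the groups are bulk samples, fewer cells that express a gene and less RNA per cell cannot be told apart.

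Measured per kilobase of exon, Jak1 had the highest level of the 10 genes, with a mean over the 13 libraries of 516 normalized counts per kb and group means from 425 to 667. Jak2 (152 per kb), Stat3 (152), Stat5b (128), Cish (115) and Stat5a (107) followed, and the ranges of their group means overlapped. Csf2rb (52.9) had the widest range as a ratio, from a group mean of 6.81 to one of 130 per kb, and Socs2 stood at 46.4, while Il6st (14.7) and Socs3 (13.9) were lowest. The steadiest member was Jak1, with an SD within groups of 0.19 on the log2 scale, against a median of 0.29 for all genes tested. Csf2rb and Jak2 were the least steady, with SDs of 0.59 and 0.50 that exceeded those of 98.0% and 93.4% of genes tested.

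**Figure D1:**
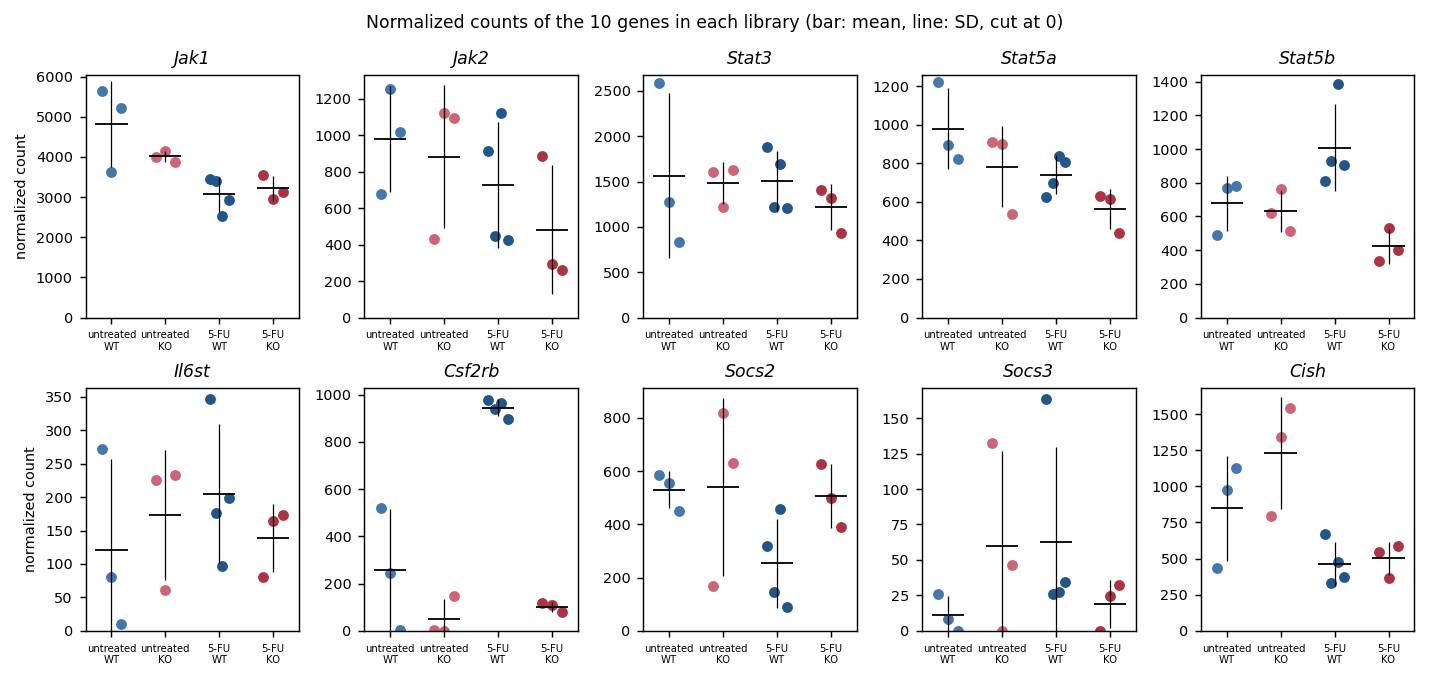
Normalized count of each of the 10 genes in each of the 13 libraries (points), grouped by treatment and genotype, with the group mean (bar) and SD (line, cut at 0). The 4 WT libraries after 5-FU stand between 898 and 978 for Csf2rb, above every other library, and 3 KO libraries after 5-FU hold the lowest group mean for Stat5b.

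Across the 4 pairwise comparisons, the members that passed the test were few. After 5-FU, KO cells had less Csf2rb and less Stat5b than WT cells. In WT cells, 5-FU went with more Csf2rb and less Jak1. No member passed between untreated KO and WT cells, in the 5-FU response of KO cells or in the interaction of genotype and 5-FU. All calls are limma tests with Benjamini-Hochberg adjustment over 12846 genes at 0.05.

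Each count of members is given beside the share of all genes tested that passed. In untreated cells 0 of 10 members passed, against 0.0311% of all genes, and 0 members had an unadjusted p under 0.05. After 5-FU, 2 of 10 members differed between KO and WT, both lower in KO, against 10.9% of all genes. The 5-FU response of WT cells took in 2 of 10 members, 1 in each direction, against 6.68%. In KO cells 0 of 10 passed, against 5.92%, with 1 member at an unadjusted p under 0.05. For the interaction 0 of 10 passed, against 2.84%, again with 1 member at an unadjusted p under 0.05. Whether 2 of 10 differs from these shares was not tested.

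The median log2 difference of the members was -0.25 between KO and WT after 5-FU, against -0.02 for all genes, and -0.08 against 0.00 in untreated cells. It was -0.12 against 0.00 in the WT response to 5-FU and -0.26 against -0.01 in the KO response, and -0.31 against -0.01 in the interaction. Complete separation of the groups' normalized counts was seen for 0 of 10 members in untreated cells, against 11.5% of all genes, and for 2 of 10 between KO and WT after 5-FU, against 27.0%. It was seen for 4 of 10 members in the WT response, against 16.7%, and for 2 of 10 in the KO response, against 28.8%. The comparisons share libraries with each other, so their values for a gene are not independent.

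**Figure D2:**
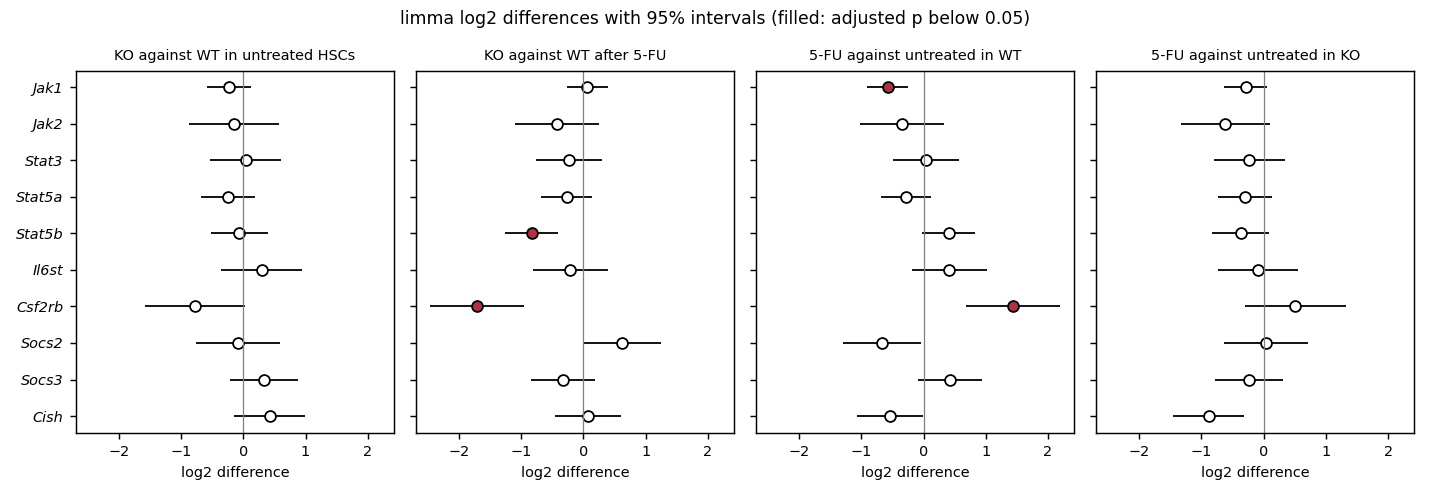
Log2 difference of each of the 10 genes in the 4 pairwise comparisons (points) with 95% intervals (lines) from limma, where filled points have an adjusted p under 0.05. Filled points are Csf2rb (-1.70) and Stat5b (-0.83) between KO and WT after 5-FU, and Csf2rb (1.44) and Jak1 (-0.58) in the WT response to 5-FU.

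Csf2rb (ENSMUSG00000071713, chromosome 15, 78325752 to 78353847, plus strand) encodes the beta chain shared by the receptors for interleukin 3, interleukin 5 and GM-CSF, cytokines of myeloid growth. Its normalized counts in the 4 libraries of 5-FU WT were 978, 939, 964 and 898, and 5-FU KO libraries had 117, 111 and 78.0. The 2 groups were far apart and each was tight. Their means were 945 ± 35.1 (SD, n = 4) and 102 ± 20.9 (SD, n = 3), a 9.27-fold lower level in KO, with a log2 difference of -1.70 (SE 0.36, limma adjusted p = 0.00518).

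Untreated libraries were much more scattered for Csf2rb. The WT libraries had normalized counts of 521, 244 and 2.11, and the KO libraries 1.84, 0.818 and 146. Libraries of both genotypes thus held almost no Csf2rb RNA while others of the same group held plenty, and the groups overlapped. Between untreated KO (49.5 ± 83.5) and WT (256 ± 260) the log2 difference was -0.78 (95% interval -1.58 to 0.03, limma adjusted p = 0.514).

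The rise of Csf2rb after 5-FU in WT cells, from 256 ± 260 (n = 3) to 945 ± 35.1 (n = 4), was 3.69-fold, with a log2 difference of 1.44 (SE 0.36, limma adjusted p = 0.0226). Every 5-FU WT library lay above every untreated WT library. In KO cells the means were 49.5 ± 83.5 before and 102 ± 20.9 after, a log2 difference of 0.51 (95% interval -0.30 to 1.32, limma adjusted p = 0.503) with overlapping groups. The difference between the responses of the 2 genotypes, -0.93 (95% interval -2.03 to 0.18), did not pass (limma adjusted p = 0.394).

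The calls on Csf2rb depended on the scale of the values. On log2 of the normalized count plus 1, the difference between KO and WT after 5-FU was -3.22 with a limma adjusted p of 0.218, and the WT rise was 3.68 with an adjusted p of 0.189. With the alike libraries A3 and D4 averaged, the former kept its call (-1.71, limma adjusted p = 0.0145) and the latter did not (1.45, limma adjusted p = 0.0527). Without untreated WT D3, the library with almost no Csf2rb, the WT rise was 0.89 (limma adjusted p = 0.0968), and it also missed the threshold without 5-FU WT A3 (adjusted p = 0.0509) or D4 (adjusted p = 0.0539) and with a term for the acquisition date (1.38, adjusted p = 0.264).

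Csf2rb2 (ENSMUSG00000071714, chromosome 15, 78282507 to 78305721, minus strand) is the mouse paralogue of Csf2rb that serves interleukin 3 alone, and the 2 genes lie 20030 bases apart. Of the 50-base stretches in Csf2rb transcripts 12.3% also occur in Csf2rb2, and 18.4% of those in Csf2rb2 also occur in Csf2rb. How the authors treated reads that fit both genes is not stated in those sources, so the split of counts between them is uncertain.

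Csf2rb2 had normalized counts of 1062, 753, 449 and 703 in 5-FU WT, and of 117, 59.0 and 2.60 in 5-FU KO. KO cells held 12.5-fold less, 59.5 ± 57.2 against 742 ± 252, with a log2 difference of -1.74 (SE 0.30, limma adjusted p = 0.00113). In the WT response to 5-FU, Csf2rb2 rose from 132 ± 107 to 742 ± 252 (log2 difference 1.41, limma adjusted p = 0.00868). The difference between KO and WT lost its call with limma-voom (adjusted p = 0.0752). The WT rise lost its call in 4 of 23 other settings, namely on log2 of the normalized count plus 1 (limma adjusted p = 0.163) or plus 5 (0.102), with TMM scaling (0.165) and with a term for the acquisition date (0.182). Untreated WT D1, which had the highest untreated count of Csf2rb, held only 9.14 normalized counts of Csf2rb2, against 193 and 194 in D2 and D3.

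Summed levels of markers of other blood cells also differed between 5-FU WT and 5-FU KO. Over all groups they did not all follow Csf2rb. In untreated WT, untreated KO and 5-FU WT the megakaryocyte sum averaged 5593, 6373 and 44743. The neutrophil sum averaged 4809, 4750 and 4912, and the monocyte and macrophage sum 19304, 16908 and 16361. Of 10 mast cell and basophil markers, cells in which this receptor is abundant, 4 were in the table. Their summed normalized count lay between 1875 and 2354 in 5-FU WT libraries, between 285 and 824 in 5-FU KO, between 173 and 1385 in untreated WT and between 291 and 335 in untreated KO. Of the 4, Fcer1a stood at 1521 ± 194 in 5-FU WT against 34.9 ± 59.4 in 5-FU KO and Cpa3 at 578 ± 297 against 358 ± 178, whereas the means of Hdc (0.528 ± 0.689 against 17.9 ± 10.3) and Gzmb (24.3 ± 48.5 against 56.3 ± 72.6) were higher in KO. Hdc was at or near 0 in each 5-FU WT library. The sum in 5-FU WT was thus mostly Fcer1a. Of the 4 markers, 1 passed the test, as lower in KO, and the median log2 difference of KO from WT was -0.04.

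Megakaryocyte markers (10 of 12 in the table) summed to 33374 to 57036 in 5-FU WT, 5656 to 8278 in 5-FU KO, 4310 to 6422 in untreated WT and 4758 to 8229 in untreated KO, with none at 0 in a whole group. Erythroid markers (9 of 12) summed to 5989 to 7436 in 5-FU WT and 2987 to 3857 in 5-FU KO. Hbb-bt, the largest of them in 5-FU KO, went the other way, at 2655 ± 457 in KO against 1530 ± 262 in WT. Of the 8 erythroid markers tested, 4 passed, as lower in KO. Neutrophil markers (8 of 12) summed to 4101 to 5887 and 2250 to 2404, with Lcn2 and Mpo at 0 in every 5-FU KO library. Most of this sum was Prtn3 (4033 ± 593 in 5-FU WT, 2271 ± 78.9 in 5-FU KO), which stood at 4612 ± 349 in untreated WT. Mpo was low in 5-FU WT as well (7.66 ± 13.5), and Lcn2 and Elane were at 0 in every untreated WT library. Of the 8 neutrophil markers, 4 passed, as lower in KO. T and NK cell markers (4 of 10) summed to 5902 to 7029 in 5-FU WT and 1868 to 3977 in 5-FU KO. Almost all of that was Nkg7 (6289 ± 426 in 5-FU WT, 2746 ± 1057 in 5-FU KO). Klrb1c was also lower in KO (0 against 77.7 ± 47.5), but Lck (188 ± 44.6 against 165 ± 26.4) and Cd4 had higher means there. Of the 4 markers, 1 passed, as lower in KO. Monocyte and macrophage markers (8 of 10) summed to 14695 to 18290 in 5-FU WT and 8625 to 9448 in 5-FU KO. This sum is almost all Lyz2 (15981 ± 1293 in 5-FU WT, 8447 ± 505 in 5-FU KO). The other 7 of these markers had higher means in KO, Cd68 for example 185 ± 52.4 against 87.9 ± 48.7, and 1 of the 7 that were tested passed, as lower in KO, with a median log2 difference of 0.40. B cell markers (6 of 10) summed to 1252 to 2497 and 621 to 857, and stromal and endothelial markers (4 of 10) to 428 to 1146 and 374 to 748, which overlapped. The B cell sum was mostly Cd79b (1378 ± 374 in 5-FU WT, 648 ± 121 in 5-FU KO). Of the 6 B cell markers, 1 passed, as lower in KO, and the median log2 difference was -0.18. HSC markers summed to 21659 to 29242 in 5-FU WT and 14085 to 14719 in 5-FU KO. Of the 14 HSC markers, 1 passed as higher and 6 as lower in KO, with a median log2 difference of -0.435. The means of Procr (223 ± 37.1 in KO against 54.7 ± 74.2 in WT), Fgd5, Hlf and Cd34 were higher in KO, and those of the remaining HSC markers were lower. The part of these differences in the results for Csf2rb and the other members was not tested.

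Il6st (ENSMUSG00000021756, chromosome 13, 112464070 to 112510086, plus strand) encodes gp130, the signalling subunit shared by receptors of the interleukin 6 family. It was low and irregular, with normalized counts of 272, 81.0 and 10.6 in untreated WT and of 225, 60.5 and 233 in untreated KO. The 5-FU WT libraries had 346, 177, 97.0 and 199, and the 5-FU KO libraries 80.6, 164 and 173. Every group overlapped every other, and the limma adjusted p lay above 0.05 in each comparison. After 5-FU the KO difference from WT was -0.21 (95% interval -0.82 to 0.40) on the log2 scale.

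Jak1 (ENSMUSG00000028530, chromosome 4, 101152367 to 101265282, minus strand) encodes the kinase used by gp130, common gamma chain and interferon receptors. Its normalized counts were 5637, 3618 and 5209 in untreated WT, and 3456, 3390, 2523 and 2916 in 5-FU WT. No 5-FU WT library reached the lowest untreated WT library, D2. The mean fell from 4821 ± 1063 (n = 3) to 3071 ± 438 (n = 4), 1.57-fold, with a log2 difference of -0.58 (SE 0.16, limma adjusted p = 0.0337).

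In KO cells the normalized counts of Jak1 were 3995, 4158 and 3884 without treatment, and 3555, 2964 and 3127 with 5-FU. Again the groups did not overlap, yet the log2 difference of -0.29 (95% interval -0.64 to 0.06) did not pass (limma adjusted p = 0.356). Between KO and WT after 5-FU the difference was 0.06 (95% interval -0.27 to 0.40), and the interaction was 0.29 (95% interval -0.20 to 0.77, limma adjusted p = 0.577). The WT call on Jak1 was lost with A3 and D4 averaged (-0.59, limma adjusted p = 0.0647), with a term for the acquisition date (-0.64, limma adjusted p = 0.240), and without untreated WT D1 (-0.46, limma adjusted p = 0.107) or D3 (-0.52, limma adjusted p = 0.117). It was lost as well without 5-FU WT A3 (-0.62), A4 (-0.50) or D4 (-0.56), with limma adjusted p-values of 0.0513, 0.0770 and 0.0923.

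Jak2 (ENSMUSG00000024789, chromosome 19, 29251828 to 29313080, plus strand) encodes the kinase of the erythropoietin and beta-chain receptors. Normalized counts were 675, 1252 and 1015 in untreated WT, 428, 1123 and 1095 in untreated KO, 913, 449, 1124 and 424 in 5-FU WT, and 888, 295 and 263 in 5-FU KO. The alike libraries A3 and D4 were the low ones of 5-FU WT, and KO A5 stood well above A6 and A8. The group means ranged from 981 ± 290 in untreated WT to 482 ± 352 in 5-FU KO, and no comparison passed, with the largest log2 difference, -0.62 (95% interval -1.33 to 0.10, limma adjusted p = 0.334), in the KO response to 5-FU.

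The 3 STAT genes lie side by side on chromosome 11: Stat5b at 100780731 to 100850724 (ENSMUSG00000020919, minus strand), Stat5a at 100859351 to 100885169 (ENSMUSG00000004043, plus strand) and Stat3 at 100885098 to 100939540 (ENSMUSG00000004040, minus strand). Stat5a and Stat3 overlap by 72 bases on opposite strands, and Smart-seq2 libraries carry no strand information. Of the 50-base stretches of Stat5a transcripts 8.21% also occur in Stat5b, and 11.0% of those of Stat5b occur in Stat5a, so the split of counts between these paralogues is uncertain to that extent.

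Stat5b encodes one of the STAT5 pair of factors that act below interleukin 3 and growth hormone receptors. Its normalized counts were 812, 927, 1389 and 906 in 5-FU WT, as opposed to 333, 533 and 401 in 5-FU KO. The highest KO library lay below the lowest WT library. The means were 1009 ± 259 (n = 4) and 422 ± 102 (n = 3), a 2.39-fold lower level in KO, with a log2 difference of -0.83 (SE 0.20, limma adjusted p = 0.0140).

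Untreated cells showed no such separation of Stat5b, with normalized counts of 489, 767 and 780 in WT as opposed to 618, 764 and 515 in KO. The log2 difference was -0.06 (95% interval -0.52 to 0.40). In WT cells Stat5b after 5-FU (812 to 1389) lay above all untreated WT libraries (489 to 780), but the difference of 0.40 did not pass (95% interval -0.02 to 0.83, limma adjusted p = 0.249). The KO response was -0.37 (95% interval -0.82 to 0.09, limma adjusted p = 0.374).

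Stat5b was the member with the smallest p in the interaction, -0.77 (95% interval -1.39 to -0.14), which did not pass (limma adjusted p = 0.184). The KO difference from WT after 5-FU lost its call without KO A5 (-0.74, limma adjusted p = 0.0766) or KO A8 (-0.81, limma adjusted p = 0.0539) and with limma-voom (-1.21, adjusted p = 0.0536). With A3 and D4 averaged it passed (-0.86, limma adjusted p = 0.0295).

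Stat5a, the other STAT5 gene, passed in no comparison. Its normalized counts were 1221, 897 and 822 in untreated WT, 910, 900 and 538 in untreated KO, 624, 697, 837 and 809 in 5-FU WT and 632, 617 and 441 in 5-FU KO. KO A8 was the lowest library, and the groups overlapped in every comparison. Between KO (563 ± 106, n = 3) and WT (742 ± 99.2, n = 4) after 5-FU the log2 difference was -0.27 (95% interval -0.67 to 0.14, limma adjusted p = 0.429). The difference between Stat5a and Stat5b was itself not tested.

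Stat3, the main factor below gp130, had its highest normalized count in untreated WT D1, 2583, against 1274 and 838 in D2 and D3. The other libraries ranged from 1217 to 1632 in untreated KO, from 1210 to 1883 in 5-FU WT and from 933 to 1410 in 5-FU KO. All groups overlapped, and between KO and WT after 5-FU the log2 difference was -0.23 (95% interval -0.76 to 0.30, limma adjusted p = 0.624).

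Cish (ENSMUSG00000032578, chromosome 9, 107296026 to 107302784, plus strand) encodes an inhibitor of STAT5 signalling that STAT5 itself induces. Its normalized counts in KO cells were 795, 1345 and 1545 without treatment, and 544, 369 and 591 with 5-FU, and these did not overlap. The means were 1228 ± 389 and 501 ± 117 (n = 3 each), with a log2 difference of -0.88 (SE 0.27) that fell short of the threshold (limma adjusted p = 0.0618). Untreated WT libraries had 438, 977 and 1127, and 5-FU WT libraries 669, 333, 474 and 375, with D1 inside the 5-FU range.

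The WT difference of Cish was -0.54 (95% interval -1.07 to -0.01, limma adjusted p = 0.212), and the interaction was -0.34 (95% interval -1.12 to 0.43, limma adjusted p = 0.701). After 5-FU the means of KO and WT were 501 ± 117 and 463 ± 150, a log2 difference of 0.08 (95% interval -0.45 to 0.61). The KO difference passed when only the untreated and 5-FU KO libraries were fitted (-0.88, limma adjusted p = 0.0428) and without untreated KO D4 (-1.10, limma adjusted p = 0.0435). It also passed without untreated WT D1 (limma adjusted p = 0.0288), which is no part of that comparison but enters the shared estimate of spread. The KO difference of Cish passed in none of the other settings. Examples are limma-voom (-1.25, adjusted p = 0.164), leaving out untreated KO D6 (-0.74, limma adjusted p = 0.2075) and a date term (-1.09, limma adjusted p = 0.551).

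Socs2 (ENSMUSG00000020027, chromosome 10, 95385362 to 95417180, minus strand) encodes an inhibitor best known for restraining growth hormone signalling. Normalized counts were 318, 148, 457 and 90.3 in 5-FU WT, and 629, 500 and 392 in 5-FU KO. WT A4 lay above KO A8, and the alike libraries A3 and D4 were the lowest. The KO mean, 507 ± 119 (n = 3), was 2.00 times the WT mean, 253 ± 167 (n = 4), but the log2 difference of 0.62 did not pass (95% interval -0.01 to 1.25, limma adjusted p = 0.210). Untreated libraries held 586, 554 and 452 in WT and 169, 818 and 633 in KO, with KO D4 far below the others.

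Socs3 (ENSMUSG00000053113, chromosome 11, 117966079 to 117970047, minus strand) encodes the inhibitor that binds gp130 and the JAKs. It had no read in untreated WT D3, untreated KO D5 and 5-FU KO A5, where a count of 0 allows up to 3.17, 2.45 and 4.03 normalized counts. Elsewhere its normalized counts were 25.8 and 8.10 in untreated WT D1 and D2, 133 and 46.5 in untreated KO D4 and D6, 163, 26.1, 27.6 and 34.5 in 5-FU WT, and 24.8 and 32.5 in 5-FU KO A6 and A8. The 5-FU WT libraries all lay above the untreated WT libraries, though by little for A3, and the log2 difference of 0.42 did not pass (95% interval -0.09 to 0.93, limma adjusted p = 0.323).

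Across the 13 libraries, Socs3 and Il6st had the highest correlation among the members, with a Pearson r of 0.821 and a Spearman rho of 0.841 of the log2 values. Both were high in 5-FU WT A2 and low in untreated WT D3. Stat5a and Stat5b had an r of 0.332, and Csf2rb and Csf2rb2 one of 0.742. These values describe 13 libraries that share 4 groups and differ in depth, and include the group differences given above.

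For the members that passed in a comparison, the 3 most alike genes of all those tested were found by Pearson r over the 13 libraries. For Csf2rb these were C1qtnf6 (0.953), Adar (0.933) and Utrn (0.927), and C1qtnf6 lies 169498 bases from Csf2rb on the same chromosome. For Stat5b they were Cdc42ep3 (0.928), 4632415L05Rik (0.915) and Dtx3 (0.914). For Jak1 they were Fcer1g (0.875), Adcy7 (0.873) and Stxbp4 (0.869).

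The pathway list held 113 further genes, of which 87 were tested. In untreated cells 0 of 87 differed between KO and WT by limma, against 0.0311% of all genes. An unadjusted limma p under 0.05 was seen for 11 of the 87, against 1291 of all 12846 genes. The smallest p was that of Csf1r, the receptor of the macrophage growth factor, with 78.7 ± 77.3 normalized counts in WT and 1.24 ± 0.536 in KO (log2 difference -0.61, limma adjusted p = 0.343), which did not pass.

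After 5-FU, 20 of the 87 (23.0%) differed between KO and WT, 4 higher and 16 lower in KO, beside the 10.9% of all genes given above. Their median log2 difference was -0.15, against -0.02 for all genes. Of 21 tested ligand-specific receptors, 1 was higher and 5 were lower, and of 16 STAT target genes 2 were higher and 3 were lower. None of the 4 JAK genes and none of the 8 SOCS family genes passed in this comparison, whereas 1 of 7 STAT genes, Stat5b, did.

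Receptor genes among the lower ones included Kit, the receptor of stem cell factor, at 1535 ± 94.3 in KO against 4325 ± 687 in WT (2.82-fold, limma adjusted p = 5.99e-04). Csf2ra, which pairs with the beta chain to bind GM-CSF, stood at 112 ± 26.2 against 460 ± 172 (4.09-fold, limma adjusted p = 0.0101). Crlf2, the receptor subunit for TSLP, stood at 119 ± 53.3 against 489 ± 110 (4.12-fold, limma adjusted p = 0.00964). Both chains of the GM-CSF receptor were thus lower in KO cells after 5-FU in the main analysis. Csf2ra lost its call with limma-voom and without 5-FU KO A5 (highest limma adjusted p 0.0541), and Csf2rb lost its call with limma-voom too. Crlf2 lost its call without 5-FU KO A5 (limma adjusted p = 0.0673). By contrast Il3ra, the alpha chain for interleukin 3, was at 98.5 ± 5.76 in KO and 59.7 ± 40.5 in WT and did not pass (log2 difference 0.29, limma adjusted p = 0.434).

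Il2rg, the gamma chain shared by receptors for interleukins 2, 4, 7 and 15, was higher in KO after 5-FU, at 4058 ± 135 against 1543 ± 784 (2.63-fold, limma adjusted p = 7.08e-04). Ifngr2, a chain of the interferon gamma receptor, was at 376 ± 76.6 against 87.8 ± 74.9 (limma adjusted p = 0.0329), a call that was lost in 8 of 23 other settings. Of the target genes, Ccnd1 (cyclin D1) was 4.09-fold higher, at 1325 ± 11.5 against 324 ± 114, and Id1 4.64-fold higher, at 1207 ± 160 against 261 ± 40.1, with a call lost in 3 of 23 other settings, both pseudocounts and TMM scaling. Gadd45g, a cytokine-induced growth arrest gene, was 7.75-fold lower, at 238 ± 77.8 against 1847 ± 194, and the phosphatase gene Dusp3 was 5.24-fold lower, at 408 ± 70.6 against 2138 ± 987.

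Further genes lower in KO after 5-FU, listed here beyond the naming rule after their values were seen, were Il27ra, Ifngr1, Sh2b1, Gab2, Irf9, Bcl3, Junb, Il6 and Il4. Ifngr1, a chain of the interferon gamma receptor, stood at 1960 ± 335 in KO and 4072 ± 767 in WT (2.08-fold, limma adjusted p = 0.0105). The count of 20 fell to 14 with A3 and D4 averaged, to 13 without 5-FU WT A3, and to 9 or 10 without KO A5 or A6.

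**Figure D3:**
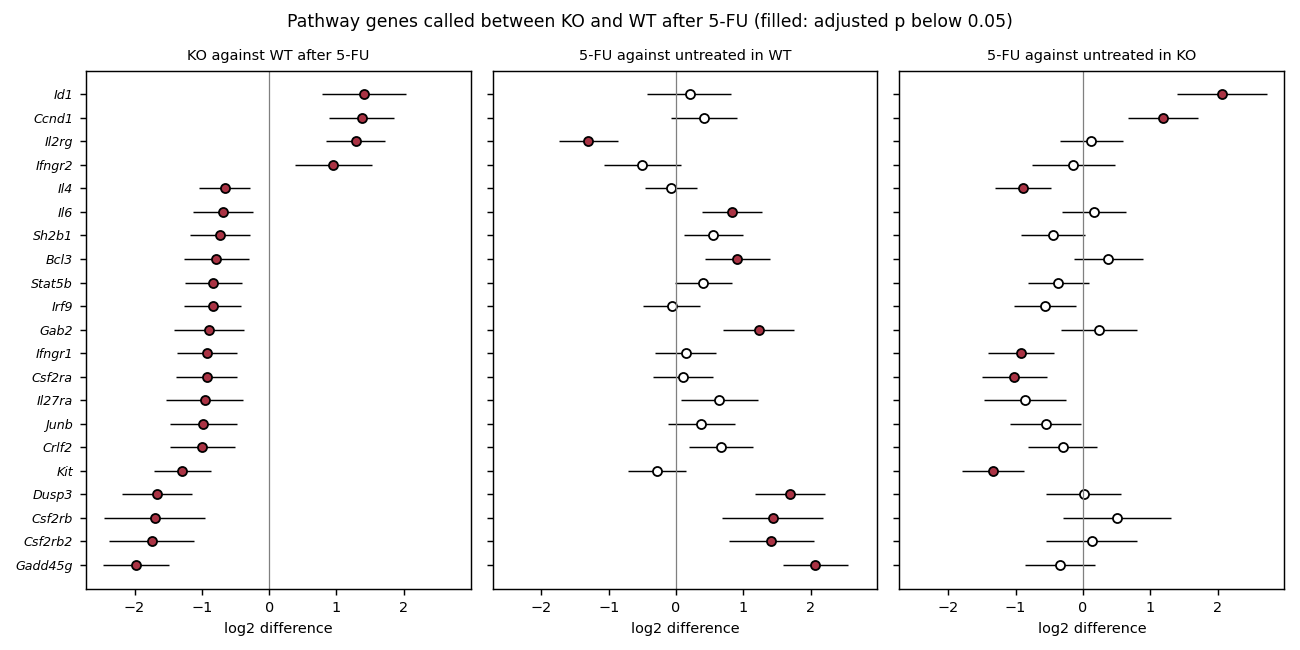
Log2 differences with 95% intervals of 21 pathway genes, members included, that passed between KO and WT after 5-FU (left), with the same genes in the 5-FU response of WT cells (middle) and KO cells (right), where filled points have an adjusted p under 0.05. Of the 21 genes, 17 lie to the left of 0 in the first panel, from Il4 at -0.66 to Gadd45g at -1.98.

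In the 5-FU response of WT cells 13 of the 87 (14.9%) passed, 7 higher and 6 lower after 5-FU, against 6.68% of all genes. The higher ones named by rule were Gadd45g (212 ± 96.8 to 1847 ± 194), Dusp3 (399 ± 83.6 to 2138 ± 987), Csf2rb2, Bcl3 (183 ± 50.2 to 598 ± 166) and the signal transducers Gab2 (211 ± 80.0 to 907 ± 309) and Ptpn11 (160 ± 70.4 to 656 ± 185). The call on Bcl3 was lost in 10 of 23 other settings. Lower after 5-FU were, among others, Il2rg (4123 ± 316 to 1543 ± 784), Ccnd2 (9460 ± 3003 to 4710 ± 1025) and the ligand genes Il15 (1282 ± 375 to 277 ± 30.6), Osm (195 ± 65.9 to 29.3 ± 39.5) and Clcf1 (73.1 ± 34.1 to 0.476 ± 0.951). The call on Osm was lost in 6 of 23 other settings, among them without untreated WT D3 or 5-FU WT D4, and omitting 1 library at a time gave log2 differences from -1.05 to -0.77. The highest limma adjusted p for Osm was 0.199, with a date term.

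In KO cells 10 of the 87 (11.5%) passed, 3 higher and 7 lower after 5-FU, against 5.92% of all genes. Id1 rose from 116 ± 103 to 1207 ± 160, Ccnd1 from 410 ± 137 to 1325 ± 11.5 and Ptpn11 from 277 ± 192 to 840 ± 63.6. Kit fell from 4460 ± 548 to 1535 ± 94.3, Csf2ra from 499 ± 115 to 112 ± 26.2, and Il15, Il4 and Irf1 fell as well. The call on Ptpn11 was lost in 6 of 23 other settings, with a date term and without untreated KO D4 or D5 or any one of the 5-FU KO libraries, and omitting 1 library at a time gave log2 differences from 0.90 to 1.32. The call on Irf1 was lost in 5 settings, among them without untreated KO D4 or D6 or without 5-FU KO A6 (-1.52 to -1.02 over the libraries left out in turn). The call on Csf2ra was lost in 4, among them without untreated KO D6 or 5-FU KO A5 (-1.12 to -0.92 likewise), and that on Il4 in 3, among them without 5-FU KO A5. The count of 10 fell to 6 without KO A5. With a term for the acquisition date, 4 of the 87 passed in WT and 0 in KO. Date and treatment differ in 1 library alone, so the 2 can hardly be told apart. That library, 5-FU WT D4, was also on another flowcell than the other 5-FU libraries.

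The response to 5-FU differed between the genotypes for 4 of the 87 (4.60%), against 2.84% of all genes. Il2rg differed by 1.43 on the log2 scale (limma adjusted p = 0.0182), falling in WT but not passing in KO cells (0.12, limma adjusted p = 0.807). Gadd45g differed by -2.41 (limma adjusted p = 0.00166) and Dusp3 by -1.68 (limma adjusted p = 0.0192), both higher after 5-FU in WT cells. Id1 differed by 1.87 (limma adjusted p = 0.0289), a call lost in 14 of 22 other settings.

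**Figure D4:**
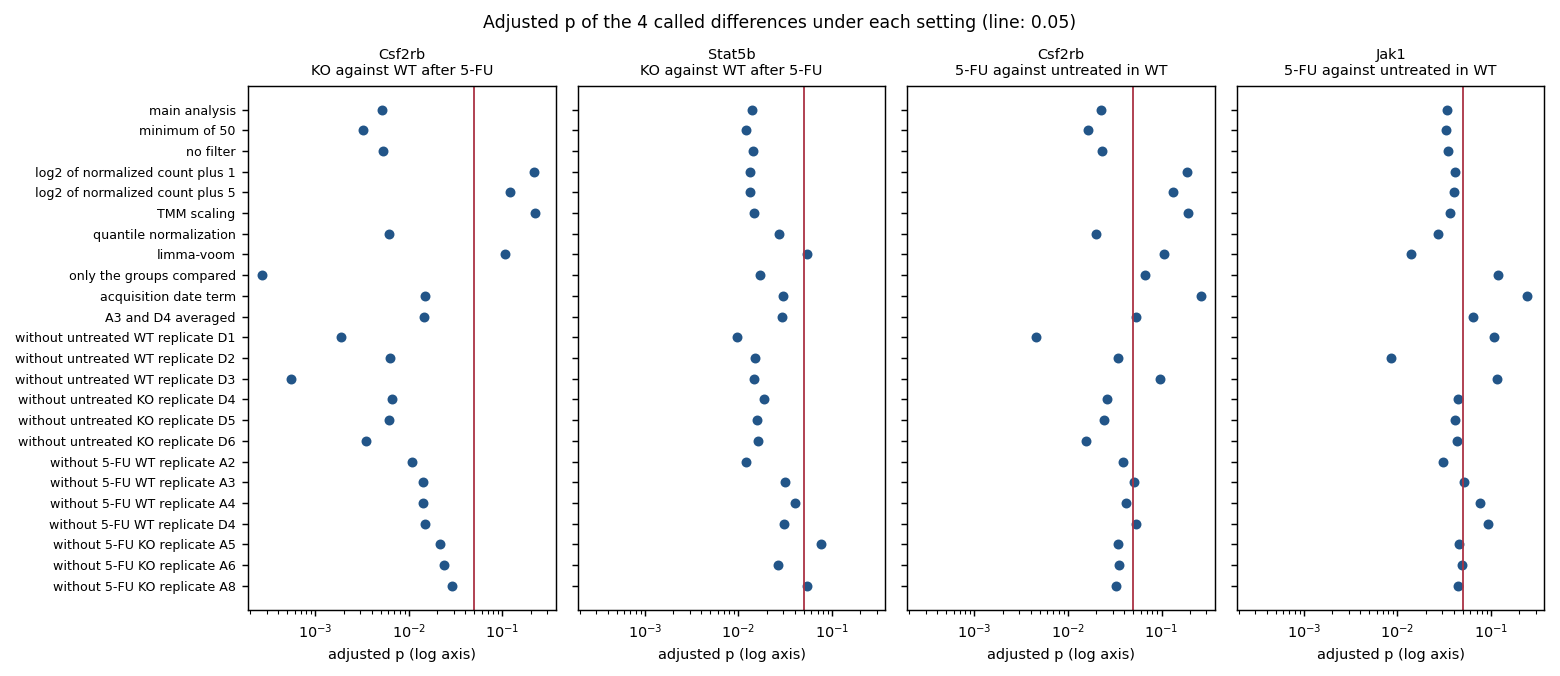
Adjusted p (log axis) of the 4 differences of the members that passed, in the main analysis and in 23 other settings, with a line at 0.05. Csf2rb between KO and WT after 5-FU passes in every setting that leaves out a library and lies to the right of the line in 4 settings, and Jak1 in the WT response lies to the right in 8.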

How the data were processed

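Polyadenylated RNA of 100 sorted HSCs per library was measured in 13 libraries. The authors deposited log2-scale variance-stabilized values made with DESeq2, per the submitters' processing notes, which also name Trimmomatic, Bowtie 1.1.1 and the mm10 genome. The sources used here do not give the counting tool, annotation or strand setting. The deposited log2 values were inverted to reads with the value of the transformation at 0 (7.6484), and 100.0% came out whole within 0.1, with an added constant of 2 in untreated WT D1, which was sequenced on both flowcells, and of 1 elsewhere. Normalized counts are reads divided by the size factor. Library totals and the floor of 3 reads are given with the results, and they cover counting error only.

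Symbols came from GENCODE M21 (GRCm38) for 13054 of 13201 identifiers, and 147 had none. The test took in 12846 genes, those whose normalized count reached 10 in 3 or more libraries. It used the deposited values with no further logarithm in limma 3.58.1 under R 4.3.3. All 13 libraries entered one fit of group means, with trended eBayes (9 residual and 7.67 prior degrees of freedom) and Benjamini-Hochberg adjustment over all genes tested. Python 3.11.15 with numpy 2.4.6, pandas 2.3.3 and matplotlib 3.10.9 served for the recovery, the promoter search and the figures, and the method was tested on simulated data. Named besides the 10 members were up to 6 further pathway genes per direction and comparison with the smallest adjusted p, or 1 gene where none passed, and the 3 genes most alike to a member that passed. A pathway gene is not reported here, though counts include it. The members, the pathway and marker lists and the tests were chosen with earlier results of these data known. Alternatives were 2 filters, 2 pseudocounts (1 and 5), TMM and quantile scaling, limma-voom, fitting only the groups compared, a date term, averaging A3 with D4, and leaving out each library.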

Additional observations from a re-analysis of the deposited data

Results flagged for a closer look

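In 4 of 31 groups of 4 checked, a single library of the 5-FU WT group stood far from the other 3 by a gap test. Chance passes this test in about 1 in 20 groups of 4 independent samples. That rate need not hold here, because A3 and D4 were closely alike and the named genes were chosen by tests on these same libraries. Socs3 reached a normalized count of 163 in A2, against 26.1 to 34.5 in the others. Il2rg reached 2716 in A2 and Ccnd2 6246 in A2, both above the rest of the group, and Bcl3 stood at 350 in A4, below the rest. For 4 pathway genes the response to 5-FU differed between KO and WT by the interaction test in limma: Gadd45g by -2.41, Dusp3 by -1.68, Id1 by 1.87 and Il2rg by 1.43 on the log2 scale.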

How the results depend on the processing

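Between KO and WT after 5-FU, the count of 2 members became 1 on log2 of the normalized count plus 1 or plus 5 and with TMM scaling, where Csf2rb no longer passed, and 0 with limma-voom. Leaving out single libraries gave 1 to 2. In the WT response the count of 2 became 1 with both pseudocounts, TMM scaling and limma-voom, and 0 when only the groups compared were fitted, with a date term or with A3 and D4 averaged. Leaving out single libraries gave 0 to 2. In the KO response the count of 0 became 1, Cish, when only the groups compared were fitted, and leaving out single libraries gave 0 to 1. The causes were not tested.

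Of the other pathway genes, 20 passed between KO and WT after 5-FU and 8 with limma-voom, with 9 to 21 when single libraries were left out. In the WT response 13 passed and 4 with a date term. In the KO response 10 passed, against 6 with limma-voom and 0 with a date term, and 6 to 13 when single libraries were left out. The interaction gave 4 and, with limma-voom, 2. No called difference of a member changed sign in any of these settings: of 92 such values, 67 kept their call and 25 lost it. TMM scaling moved the median log2 difference of all genes to at most 0.05. No paired analysis was possible because the groups compared share fewer than 2 replicate numbers. The main limits are 3 or 4 libraries of 100 cells per group, low counts of Socs3, Il6st and untreated Csf2rb, and treatment nearly inseparable from date.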
